A study of Aspergillus luchuensis with 6 samples.

Results

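In rice koji of Aspergillus luchuensis mut. kawachii, a white mould, the mitochondrial sequence carried start tags almost entirely on its plus strand, and most of them lay in a few dense stretches. The deposited table was made by CAGE (cap analysis of gene expression), which records the 5′ end of each captured RNA as a tag at a single base. The sequence was taken as all 21450 rows of the table named AP012272.1, of 1048575 rows in all. A cluster is a run of positions on one strand, each with 2 or more pooled tags and no more than 20 bp from the next. There were 282 clusters, of 36260 in the whole table. The name of the sequence is the one used in the deposited table, and no source used here gives the genome build. That it is mitochondrial is how it is designated here and was not checked against genes, because no annotation in these coordinates was used.

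RNA came from rice koji, which is steamed rice overgrown by the mould. Libraries of a control strain (ctrl4, n = 3) were compared with those of a strain whose sirtuin D gene is disrupted (sirD, n = 3). Each group is a single strain, and the labels do not say whether replicates were separate cultures, so p-values measure only how far these libraries differ among themselves, which could be technical. A control library had 3148498 to 3275687 tags in the table and a sirD library 3336690 to 3580777. Of these, 191112 to 201343 and 172079 to 216061 lay on the mitochondrial sequence.

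As background, a fungal mitochondrial genome encodes subunits of the respiratory chain and the ATP synthase, the ribosomal RNAs of the mitochondrial ribosome and a set of transfer RNAs. Its genes are transcribed as long RNAs that cover several genes, and the mature RNAs are cut out of them, often at transfer RNAs. Mitochondrial transcripts do not carry the methylguanosine cap of nuclear messenger RNA, so a 5′ end recorded here may be a start, a cut end or a break. Sirtuins are NAD-dependent protein deacylases. The RefSeq gene table of another assembly, AkawachiiIFO4308_assembly01, lists 44 mitochondrial genes, of which 16 encode proteins, 2 are ribosomal RNAs and 26 are transfer RNAs. Their order there, without the transfer RNAs, is cob (cytochrome b of complex III), nad1 (a subunit of complex I), orf1, orf2, nad4, atp8 and atp6 (subunits of the ATP synthase), a ribosomal RNA, nad6, cox3 (a subunit of complex IV), the other ribosomal RNA, cox1, atp9, nad3, cox2, nad4L, nad5 and nad2. No tag position was assigned to a gene.

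The plus strand held 1149000 tags over the 6 libraries and the minus strand 278. Tags lay at 14466 plus-strand positions, from position 1 to 31189, and at 237 minus-strand positions, from 113 to 30733 (positions count from 1). Of the plus-strand positions up to the last one, 46.4% had a tag. The longest plus-strand stretch without any tag was 136 bp, at 1055 to 1190, and 2 such stretches reached 100 bp. Plus-strand tags were therefore spread from end to end of the listed sequence, though not over every base, at levels that differed by several orders of magnitude. Of the 14466 plus-strand positions with a tag, 3767 held a single one. A further 6747 rows of the sequence, 5703 on the plus and 1044 on the minus strand, were listed with no tag in any of the 6 libraries.

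The minus-strand share was far below that of the nuclear scaffolds in every library. It was 0.0109% in control 1 (22 tags, exact 95% interval 0.00685% to 0.0165%), 0.0649% in control 2 (124 tags, 0.0540% to 0.0774%) and 0.00415% in control 3 (8 tags, 0.00179% to 0.00819%). In the sirD libraries it was 0.00523% (9 tags, 0.00239% to 0.00993%), 0.0329% (58 tags, 0.0250% to 0.0426%) and 0.0264% (57 tags, 0.0200% to 0.0342%). Tags were not separated by molecular identifiers, as far as the table shows, so these intervals cover counting error only. On the 2 nuclear scaffolds of the table the minus strand took 54.0% to 54.5% of the tags. The difference, mitochondrial minus scaffold, was −54.3 percentage points on average and below 0 in 6 of 6 libraries. This comparison was chosen after the difference was seen and is a description. Between strains the minus-strand share was 0.0267% ± 0.0333 in the control and 0.0215% ± 0.0145 in sirD (SD, n = 3; two-sided exact test by permutation, p = 0.9, adjusted p = 0.9 over 4 such comparisons). The libraries of each strain overlapped, and control 2 held the most minus-strand tags of the 6. The difference, sirD minus control, was −0.0051 percentage points. Without control 2 it was 0.014 (exact permutation p = 0.3), and without sirD 1 it was 0.0030 (exact permutation p = 1.0).

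Minus-strand tags were scattered and formed no strong start site. They gave 35 clusters with 80 tags in all, of which 31 held 2 tags. The most tags, 7, lay at 21225 to 21251, with 2 from control 2, 4 from sirD 2 and 1 from sirD 3. The clusters at 2678 to 2694 and 2825 to 2830 held 4 tags each, all of control 2 in the second, and position 15481 held 3. The cluster at position 851 was the first of the 31 with 2 tags. Of all 278 minus-strand tags, 125 lay opposite the 7 plus-strand clusters of 10000 or more tags. These 7 clusters span 10086 bp of a sequence listed up to position 31191, and hold 97.7% of its tags. No minus-strand cluster passed the count filter (edgeR's filterByExpr), so none was tested.

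**Figure D1:**
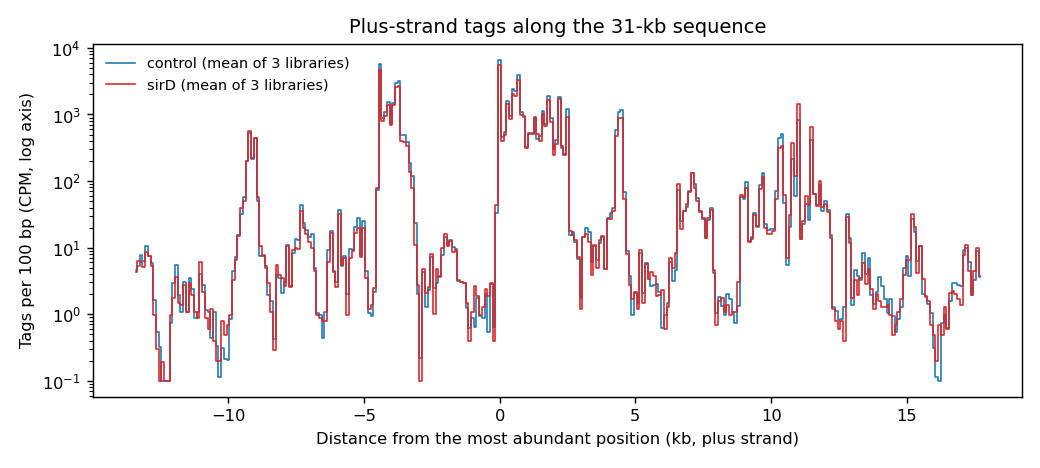
Plus-strand tags along the mitochondrial sequence in windows of 100 bp, as the mean CPM (tags scaled to a common library total) of 3 control and 3 sirD libraries on a log axis, with windows below 0.1 CPM drawn at 0.1; the x axis is the distance from the most abundant position. The 2 clusters that hold 83.0% of the tags stand above the rest, and the profiles of the strains lie close together except to the right, near 10 to 11 kb.

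Tags were concentrated in a few stretches of the plus strand. The cluster at 13322 to 16053 held 603322 tags, 52.5% of the sequence's tags, and that at 8915 to 10370 held 350388, or 30.5%. Together they took 83.0%, and the 10 clusters with most tags took 98.5% over 12213 bp. These 10 are numbered 1 to 10 along the sequence in the plot of cluster levels. Clusters 4 and 5 are these most abundant ones. The others are cluster 1 at 3787 to 4802 (30620 tags), cluster 2 at 5798 to 6671 (2561), cluster 3 at 7957 to 8591 (1642), cluster 6 at 17374 to 18198 (52544), cluster 7 at 20036 to 21339 (12684), cluster 8 at 22269 to 22886 (5025), cluster 9 at 22921 to 24017 (23607) and cluster 10 at 24052 to 25707 (49769). At the other end, 112 of the 247 plus-strand clusters held fewer than 10 tags.

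In the 2 most abundant clusters 5′ ends fell on nearly every base, with sharp maxima above them. In cluster 5, 2507 of its 2732 bp had 2 or more tags, and in cluster 4, 1334 of 1456 bp. The other 8 were less filled, with 635 of 1016 bp in cluster 1, 351 of 874 in cluster 2, 259 of 635 in cluster 3 and 477 of 825 in cluster 6. Clusters 7 to 10 had 747 of 1304, 333 of 618, 679 of 1097 and 992 of 1656 bp. The most abundant position, 13454, alone held 82440 tags, 7.17% of the sequence's tags. The 10 most abundant positions took 21.5% and 121 positions together held 50% of the tags.

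The strongest maxima stood out from their surroundings by a single base. Position 13454 had 15549, 13555 and 14322 tags in the control and 12779, 12195 and 14040 in the sirD libraries, and took 72.9% of the tags within 10 bp on either side. Position 9052 had 8127, 7989 and 7568 tags in the control and 7032, 6081 and 7036 in sirD, and took 58.1% of its window, with position 9053 next to it at 23.1%. Both maxima stood in every library, and 13454 took 6.50% to 7.72% of a library's tags on the sequence. Upstream of 9052 by 23 bp, position 9029 held 95.01% of the tags of its window, the highest share found, with 2303, 2370 and 2150 tags in the control and 1927, 1915 and 2120 in sirD. Position 15613 held 90.6% of its window, with 4246, 3319 and 4279 tags in the control and 3884, 3475 and 3955 in sirD. Position 17793, the peak of cluster 6, held 91.0% of its window, with 32 tags in the 10 bp before it and 9234 on it. In contrast, the tags near 14181 were spread over neighbouring bases, and positions 14181, 14182 and 14183 took 26.1%, 21.5% and 23.3% of their own windows. Position 14181 had 2842, 2352 and 2728 tags in the control and 2387, 2196 and 2793 in sirD. Position 14182 had 2377, 2188 and 2220 in the control and 1823, 1777 and 2215 in sirD, and position 14183 had 2531, 2450 and 2101 in the control and 2020, 2119 and 2413 in sirD. Each of these bases was thus used in every library. The remaining members of the 10 most abundant positions were 9053, the base after 9052, with 3175, 3084 and 3008 tags in the control and 2949, 2750 and 3063 in sirD, and 13453, the base before 13454, with 2241, 1905 and 2363 in the control and 1905, 1781 and 2230 in sirD. Position 9673 completed them, with 49.3% of its window and 2186, 2183 and 2358 tags in the control and 2081, 1809 and 2262 in sirD.

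Local maxima were counted as plus-strand positions of 1000 or more tags that were the highest within 20 bp, a definition chosen after the data were seen. There were 59, in 6 clusters, of which cluster 5 held 30 and cluster 4 held 16. They took 30.2% of the sequence's tags and lay 59.5 bp apart at the median. The share of a maximum in the tags within 10 bp ran from 14.1% to 95.01%, with a median of 39.5%. In 17 of the 59 it was 50% or more, and in 3 it was 90% or more. Some maxima had a sharp edge. In 9 the 10 bp after the maximum held less than 10% of its tags, and in 4 the 10 bp before it did. At position 24973 in cluster 10, 5090 tags lay in the 10 bp before, 1761 on the position and 47 in the 10 bp after.

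**Figure D2:**
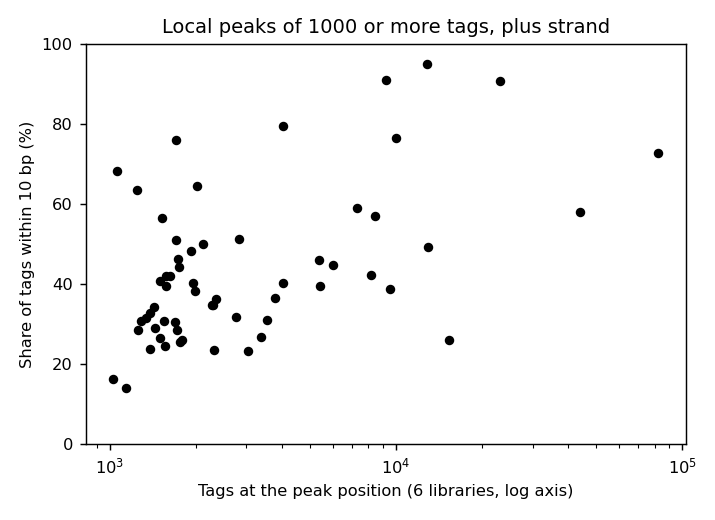
Each point is one of 59 local maxima of the plus strand, with its tags summed over 6 libraries on a log axis and its share of the tags within 10 bp on either side in percent. The shares run from 14.1% to 95.01%, and the most abundant position, furthest to the right, lies at 72.9%.

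Another definition took a single position of 100 or more tags that holds 50% or more of its cluster. It found 2 narrow, processing-like peaks among the 12 clusters with a position of 100 or more tags. One was position 11409, with 203 of the 330 tags of the cluster at 11332 to 11429 (61.5%) and 29, 33 and 40 tags in the control and 35, 35 and 31 in sirD. The other was position 31098, with 101 of the 167 tags of the cluster at 31077 to 31120 (60.5%) and 12, 7 and 17 tags in the control and 19, 29 and 17 in sirD. The next of the 12 by share, the peak at 7508, held 24.4% of its cluster, and the peak at 20007 held 55.9% with 76 tags. Neither narrow cluster passed the test between strains (edgeR's quasi-likelihood test, adjusted p = 0.927 and 0.384). Among the scaffold clusters with a position of 100 or more tags, 12.99% were narrow by this definition (169 of 1301), against 16.7% here. Because the definition divides by the whole cluster, position 9029 did not qualify, with 95.01% of its window but 3.65% of the tags of its cluster. The part of cluster width in these percentages was not tested.

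Compared with the scaffolds, a mitochondrial cluster put fewer of its tags on its peak. The median share of the peak, over 41 clusters of 100 or more tags, was 12.5%, 14.6% and 14.1% in the control and 14.2%, 13.04% and 15.4% in sirD. Over 2875 scaffold clusters it was 17.5% to 18.5%. The difference, mitochondrial minus scaffold, was −4.25 percentage points on average and below 0 in 6 of 6 libraries (two-sided exact sign-flip permutation test, p = 0.031, the smallest possible). Every library was measured on the same clusters and the same pooled peaks. The p-value therefore shows only that the libraries agree. The clusters compared were of similar width, with a median of 155 bp here and 134 bp on the scaffolds. With clusters of 1000 or more tags the difference was −9.24 percentage points. The mitochondrial clusters of that size were much wider, 563 to 2732 bp, and the part of width in this difference was not tested.

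Between strains, the share of tags on the mitochondrial sequence overlapped. It was 6.39%, 5.83% and 5.97% in the control and 4.81%, 5.28% and 6.09% in sirD. The sirD libraries spread more widely, and sirD 3 lay within the control range. The means were 6.07% ± 0.292 and 5.39% ± 0.649 (SD, n = 3), a difference of −0.676 percentage points that did not pass the test (two-sided exact permutation test, p = 0.3, adjusted p = 0.4 over 4 comparisons, smallest possible 0.1). The difference was −0.384 without sirD 1 and −1.02 without sirD 3 (exact permutation p = 0.1, the smallest possible). With the short contigs left out of the total the shares themselves were larger, at 11.7% in the control and 10.5% in sirD. Their difference, −1.24, is therefore not on the scale of the others. The total covers only part of the genome and includes tags on short contigs besides the scaffolds, so the share also moves with these other tags. In bulk RNA, fewer mitochondria per cell, fewer tags per mitochondrion and more of these other tags cannot be told apart.

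The next comparison asked which clusters differed in level in sirD. All clusters of the table that passed the count filter entered one edgeR quasi-likelihood fit with TMM scaling, and an adjusted p (Benjamini-Hochberg) under 0.05 was called a change. Of 282 clusters 53 passed the filter, all on the plus strand. In them 1 rose and 1 fell in sirD, or 3.77% called, beside 24.5% of all 4083 clusters tested (10.4% higher and 14% lower). The median log2 difference (sirD minus control) was −0.04 over the 53 and −0.003 over all clusters, and the median size of the difference was 0.23 and 0.40. The libraries of each strain did not overlap in 6 of the 53, of which 5 were lower in sirD, beside 39.7% of all clusters tested. An unadjusted p under 0.05 was found for 6 of the 53. The clusters that changed were neighbours, 9 and 10.

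**Figure D3:**
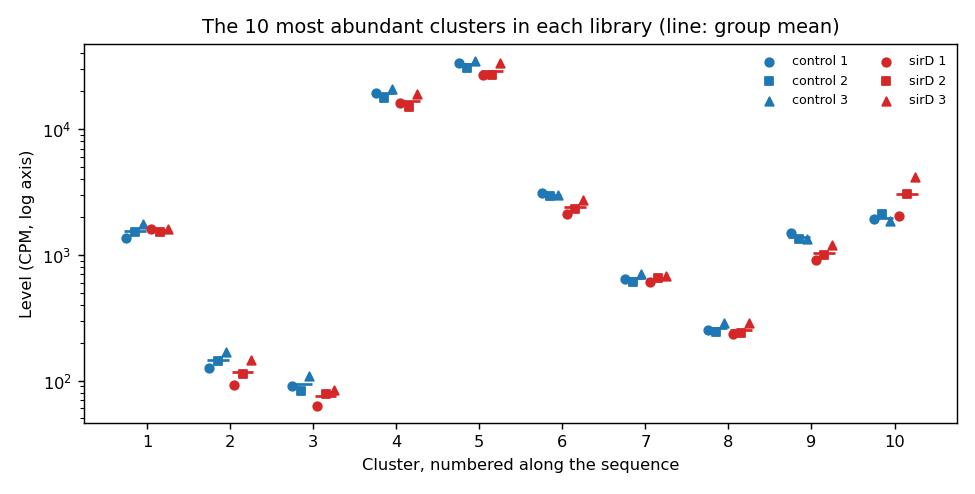
Level of the 10 most abundant mitochondrial clusters in each library, in CPM on a log axis, numbered along the sequence, with a line at the mean of each strain. Clusters 4 and 5 stand highest and their strains overlap, cluster 9 is lower in each sirD library than in any control library, and in cluster 10 sirD 1 lies among the control libraries while sirD 2 and sirD 3 lie above them.

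Cluster 10, at 24052 to 25707, rose in sirD, but not in every library. It had 6185, 6986 and 5467 tags in the control and 6789, 10362 and 13980 in the sirD libraries. After scaling, sirD 1 (2025 CPM) lay within the control range of 1859 to 2129 CPM, and sirD 2 (3023) and sirD 3 (4157) lay above it. The mean went from 1970 ± 141 to 3068 ± 1067 CPM (SD, n = 3), a 1.56-fold rise (log2 0.64, SE 0.18, edgeR adjusted p = 0.0147). The call was lost without control 3 (log2 0.59, adjusted p = 0.0531) and without sirD 3 (log2 0.38, adjusted p = 0.125). It was also lost with positions joined within 50 bp, which merges clusters 8, 9 and 10 into one (log2 0.31, adjusted p = 0.179).

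Cluster 9, at 22921 to 24017, directly before cluster 10 on the same strand, fell in sirD. It had 4819, 4347 and 3944 tags in the control and 3074, 3393 and 4030 in sirD, or 1498, 1325 and 1341 CPM and 917, 990 and 1198 CPM. The strains did not overlap after scaling. The mean went from 1388 ± 95.5 to 1035 ± 146 CPM (SD, n = 3), a 1.34-fold fall (log2 −0.42, SE 0.14, edgeR adjusted p = 0.0314). The call was lost without control 2 (log2 −0.44, adjusted p = 0.0671), sirD 1 (log2 −0.31, adjusted p = 0.166) or sirD 2 (log2 −0.36, adjusted p = 0.165), with no count filter (log2 −0.42, adjusted p = 0.166), and with libraries scaled to the mitochondrial total (log2 −0.27, adjusted p = 0.291). That scaling moved the median of all clusters by 0.17. In the merged cluster of the joining within 50 bp the direction turned.

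The ratio of tags in cluster 10 to tags in cluster 9, which does not depend on the scaling between libraries, was 1.28, 1.61 and 1.39 in the control and 2.21, 3.05 and 3.47 in sirD. Every sirD library was above every control library. The means were 1.43 ± 0.165 and 2.91 ± 0.642 (SD, n = 3; two-sided exact test by permutation, p = 0.1, the smallest possible, adjusted p = 0.4 over 4 comparisons). The ratio was chosen after the changes were seen, so it describes them and adds no evidence of its own.

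**Figure D4:**
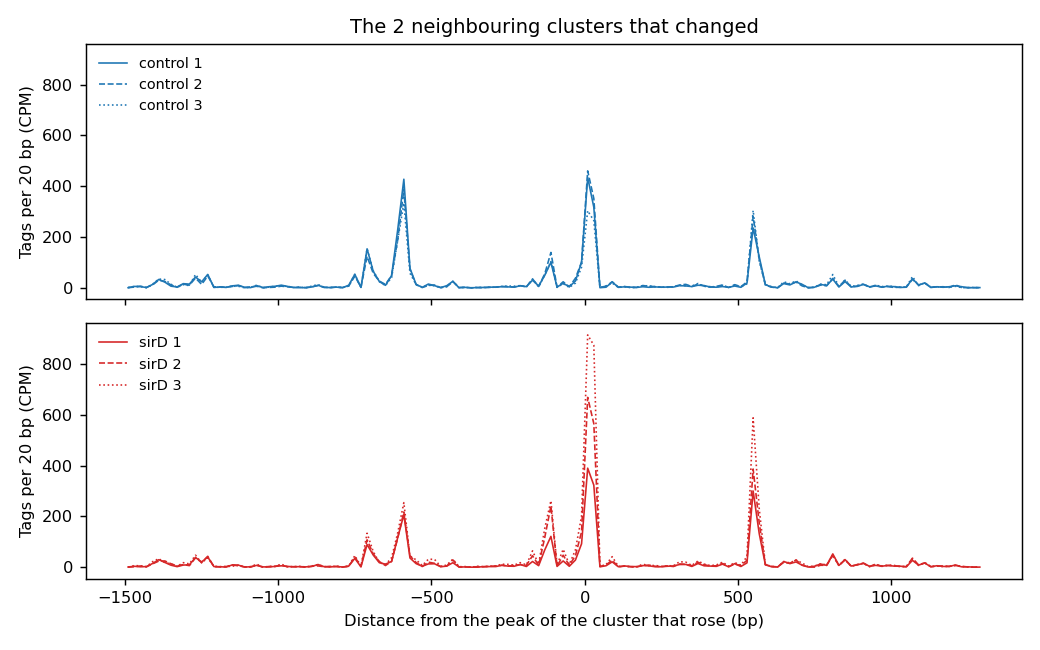
Tags in windows of 20 bp over clusters 9 and 10 in the 3 control (top) and 3 sirD libraries (bottom), in CPM, against the distance in bp from the peak of cluster 10. The group of peaks to the left of it is lower in the sirD libraries, and the peak at 0 and the next tall peak to its right are higher in sirD 2 and sirD 3, with sirD 1 near the control level at the main peak.

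The called positions sat in short parts of these clusters, which also held most of the tested ones, while mean levels differed in the same direction in some other parts. In windows of 200 bp from the start of cluster 9, the part at 23721 to 23920 went from 2925, 2683 and 2192 tags in the control to 1655, 1805 and 2169 in sirD, or 824 ± 82.0 to 555 ± 79.6 CPM (SD, n = 3), without overlap after scaling. The part at 23121 to 23320 was at 142 ± 12.0 and 124 ± 2.69 CPM, without overlap. The part at 23521 to 23720 was at 236 ± 22.7 and 186 ± 33.6 CPM, with overlap. The parts at 22921 to 23120 (121 ± 7.42 and 109 ± 18.1 CPM) and 23321 to 23520 (37.8 ± 6.04 and 32.0 ± 6.93 CPM) overlapped. The last part of cluster 9, at 23921 to 24017, had the higher mean in sirD (35.0 ± 2.23 and 36.7 ± 10.7 CPM), with overlap. In cluster 10 the part at 24252 to 24451 had 3403, 3867 and 2485 tags in the control and 3544, 6299 and 8639 in sirD, or 1027 ± 169 and 1821 ± 756 CPM, and sirD 1 lay within the control range. In its neighbouring parts means were also higher in sirD, with overlapping libraries, at 24052 to 24251 (71.1 ± 4.01 and 99.4 ± 40.6 CPM), 24452 to 24651 (55.6 ± 8.14 and 68.4 ± 17.96 CPM) and 24652 to 24851 (64.2 ± 8.66 and 85.4 ± 26.8 CPM). The part at 24852 to 25051 went from 445 ± 31.8 to 681 ± 219 CPM and did not overlap. Means were slightly higher in sirD, with overlap, at 25052 to 25251 (141 ± 21.5 and 151 ± 13.7 CPM) and 25252 to 25451 (81.6 ± 11.2 and 90.9 ± 2.54 CPM). The part at 25452 to 25651 was at 94.3 ± 2.59 and 81.9 ± 6.17 CPM, lower in each sirD library. So was the last, sparse part at 25652 to 25707 (2.01 ± 0.136 and 1.38 ± 0.186 CPM). These windows were looked at after the clusters were called and were not tested.

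Of the other 8 abundant clusters none passed the test. The level of cluster 5 averaged 32837 ± 2043 CPM in control and 29002 ± 3807 in sirD libraries (SD, n = 3), a log2 difference of −0.18 (95% interval −0.44 to 0.09, edgeR adjusted p = 0.33). Cluster 4 was at 19317 ± 1452 and 16628 ± 2114 CPM (log2 −0.22, interval −0.49 to 0.05, adjusted p = 0.244). Both intervals include 0. Cluster 6 had 10054, 9563 and 8789 tags in the control and 7054, 7967 and 9117 in sirD, and its strains did not overlap after scaling. It was at 3010 ± 107 and 2380 ± 307 CPM (log2 −0.34, interval −0.62 to −0.06, adjusted p = 0.0712), and passed only with the replicate number as a block (adjusted p = 0.0363), among the alternatives run. Cluster 1 had 4385, 4966 and 5169 tags in the control and 5422, 5242 and 5436 in sirD (log2 0.04, interval −0.24 to 0.32, adjusted p = 0.873). Clusters 7 and 8 differed by −0.02 (interval −0.30 to 0.26) and −0.05 (−0.34 to 0.24). Clusters 2 and 3 both differed by −0.31, with intervals of −0.67 to 0.04 and −0.66 to 0.03. Clusters 1, 7 and 8 lay closest to equal, and the intervals of all 3 fell between −0.34 and 0.32.

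The 42 tested clusters under 1000 tags held 56 to 867 tags each and none was called. Their log2 differences ran from −1.20 to 1.00, and the smallest adjusted p, 0.0574, belonged to the cluster at 19996 to 20007, which had 18, 14 and 11 tags in the control and 15, 34 and 44 in sirD (log2 1.00, SE 0.38, edgeR). The cluster at 1586 to 1625, with 12, 13 and 18 tags in the control and 10, 7 and 3 in sirD (log2 −1.20, SE 0.45, edgeR adjusted p = 0.0601), followed. The remaining 194 plus-strand clusters, with 2503 tags in all, did not pass the filter.

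Single positions were compared in the same way, over all positions of the table with 10 or more tags that passed the filter and with levels scaled over these positions. On the mitochondrial sequence 2227 positions were tested, in 20 clusters. Of these, 8 passed the filter through sirD libraries alone and 17 through control libraries alone. Of the 2227, 48 changed (2.16%), with 17 higher and 31 lower in sirD. That is beside 9.79% of all 21733 positions tested (4.12% higher and 5.67% lower). The 48 include 1 position that passed through sirD alone, 24343, and 1 that passed through the control alone, 10206. The direction of these was built into their selection. The other 46 passed through the libraries of either strain. The median log2 difference was −0.18 here and −0.01 over all positions, and 1556 of the 2227 were below 0. Of the 2227, 1177 lay in cluster 5 and 602 in cluster 4, with 824 and 472 of them below 0. Positions of one cluster share its level and are not independent, and neither cluster passed the test. Over the 53 tested clusters the median was −0.04. The strains did not overlap at 429 of the 2227 positions (71 higher, 358 lower), or 19.3%, beside 28.1% of all positions tested. Of the 358 lower, 178 lay in cluster 5 and 106 in cluster 4. With libraries scaled to the mitochondrial total, which moved the median of all positions by 0.18, 42 were higher and 6 lower, beside 1416 higher and 814 lower of all 21733. Of the 48 positions, 23 stayed called with that scaling, among them all 15 of cluster 10 and 3 of the 8 of cluster 9. The count also moved with single libraries. It was 12, 19 and 17 without control 1, 2 and 3, and 64, 6 and 31 without sirD 1, 2 and 3.

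**Figure D5:**
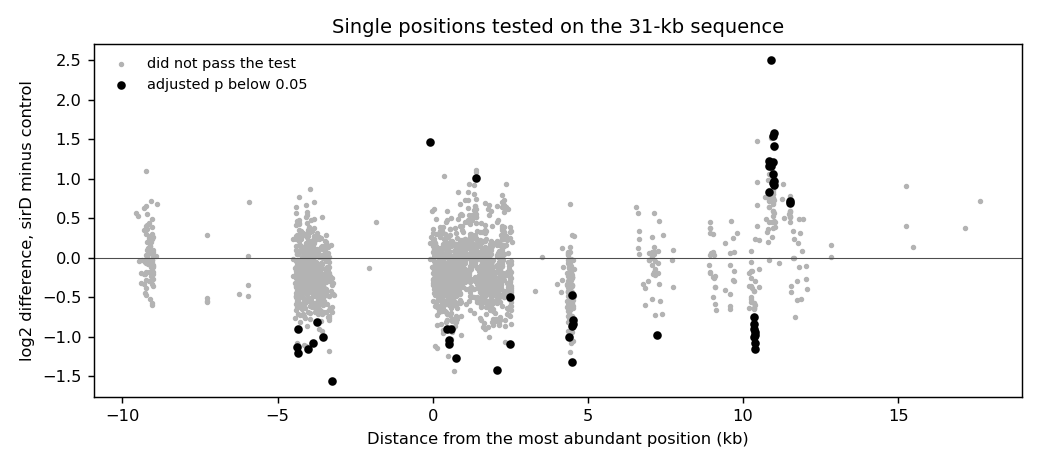
log2 difference (sirD minus control) of each of the 2227 tested positions against its distance in kb from the most abundant position, with the 48 positions called changed in black. Black points above 0 gather near 11 kb, in cluster 10, and just to the left of them black points below 0 mark cluster 9.

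The changed positions of clusters 9 and 10 lay in tight groups. In cluster 9, 8 of 60 tested positions were called and in cluster 10, 15 of 99, beside 9.79% of all positions tested. All 8 called in cluster 9 were lower in sirD and lay at 23793 to 23832. Among them position 23810, the peak of the cluster, had 430, 352 and 296 tags in the control and 182, 213 and 265 in sirD (log2 −0.84, SE 0.19, edgeR adjusted p = 0.00978). Position 23825 had 314, 315 and 190 tags in the control and 146, 145 and 161 in sirD (log2 −0.98, SE 0.20, edgeR adjusted p = 0.00542). The other positions, 23793, 23794, 23821, 23826, 23831 and 23832, held 98 to 889 tags. At all 8 the strains did not overlap, beside 28.1% of all tested positions, called or not. All 15 called of 99 tested in cluster 10 were higher in sirD, at 24276 to 24973, with log2 differences of 0.69 to 1.58 at all but position 24343. Position 24276 had 95, 106 and 96 tags in the control and 160, 237 and 362 in sirD (log2 1.22, SE 0.24, edgeR adjusted p = 0.0036, the smallest on the sequence). Position 24436 had 270, 277 and 205 tags in the control and 309, 511 and 737 in sirD (log2 0.92, SE 0.23, edgeR adjusted p = 0.0193). Position 24343 was nearly empty in the control, with 0, 5 and 2 tags, against 12, 14 and 19 in sirD. It passed the count filter through the sirD libraries alone, so its difference was built into its selection and no test is given for it. It is still counted in the 15. The others were 24293, 24294, 24341, 24413, 24428, 24430, 24431, 24437, 24439, 24441, 24966 and 24973, with 152 to 1761 tags. In 10 of the 15 the strains did not overlap, beside the same 28.1% of all tested positions. In these 10 sirD 1 was also above every control library, and in the other 5 only sirD 2 and sirD 3 were.

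The remaining 25 changed positions lay in 4 other clusters. These are lower shares of the positions tested than in clusters 9 and 10, with 8 called of 602 in cluster 4, 10 of 1177 in cluster 5, 6 of 122 in cluster 6 and 1 of 41 in cluster 7. Over all positions tested the share was 9.79%. In cluster 4 all 8 were lower, namely 9076, 9097, 9109, 9424, 9589, 9726, 9924 and 10206, with 82 to 293 tags each. Position 10206, with 18, 18 and 24 tags in the control and 4, 8 and 10 in sirD, passed the count filter through the control libraries alone. Its direction was thus built into its selection, though it is counted in the 8. Position 9109 had 42, 38 and 37 tags in the control and 15, 19 and 21 in sirD (log2 −1.21, SE 0.26, edgeR adjusted p = 0.0067). In cluster 6 all 6 were lower. They were 17841, 17948, 17952, 17968 and 17969, with 162 to 390 tags each, and position 17928 with 1047, 1016 and 942 tags in the control and 802, 733 and 819 in sirD (log2 −0.48, SE 0.14, edgeR adjusted p = 0.0424). Position 17928 is a local maximum, whereas the 8 of cluster 4 took at most 13.8% of the tags within 10 bp. Cluster 5 had 8 lower and 2 higher. Lower were 13926, 13989, 13994, 14051, 14196, 15522 and 15936, with 70 to 263 tags each, and 15942. Position 15942, a local maximum, had 1504, 1309 and 1316 tags in the control and 1108, 959 and 1110 in sirD (log2 −0.50, SE 0.14, edgeR adjusted p = 0.0358). The higher ones were position 13361, with 12, 5 and 5 tags in the control and 16, 25 and 26 in sirD, and position 14843, with 74, 125 and 111 in the control and 158, 198 and 326 in sirD (log2 1.01, SE 0.25, edgeR adjusted p = 0.0157). Cluster 7 had 1 lower position, 20675, with 38, 40 and 31 tags in the control and 21, 18 and 21 in sirD.

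None of the 10 most abundant positions changed. Their log2 differences ran from −0.36 at 9052 (SE 0.12, edgeR adjusted p = 0.0834) to −0.19 at 15613 (SE 0.15, edgeR adjusted p = 0.466), all below 0. At 13454 it was −0.28 (SE 0.12, edgeR adjusted p = 0.177). After scaling, every sirD library was below every control library at 6 of the 10 (13454, 9052, 9053, 9673, 9029 and 14182), and the strains overlapped at 4, beside 28.1% of all tested positions without overlap. All 10 lay in clusters 4 and 5, some of them on adjacent bases. They share the level of these clusters, neither of which passed the test, and are not independent.

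The distribution of 5′ ends within a cluster was tested with edgeR's diffSpliceDGE, which compares each position with the rest of its cluster. Of 12 mitochondrial clusters with several tested positions 1 was called, cluster 9 (adjusted p = 0.0379), beside 1.79% of all 1286 clusters. In it position 23825 went from 8.53%, 9.76% and 6.59% of the tags at tested positions in the control to 6.76%, 6.07% and 5.94% in sirD, and position 23170 from 4.07%, 4.12% and 4.34% to 5.60%, 5.53% and 4.06%. These are the positions with the largest loss and gain of share, and the libraries of the strains overlapped at both. The strains did not overlap at the peak, 23810, which went from 11.7%, 10.9% and 10.3% in the control to 8.43%, 8.92% and 9.77% in sirD. They did not overlap at 23137 either, which went from 1.14%, 1.05% and 1.04% to 1.62%, 1.89% and 2.14%. The mean position was 23711 ± 15.5 in the control and 23687 ± 13.4 in sirD, a shift of −23.3 bp, with overlapping libraries, that did not pass the test (SD, n = 3; two-sided exact test by permutation, p = 0.2, adjusted p = 0.4 over 4 comparisons). The call of cluster 9 was lost with any 1 library left out, with adjusted p of 0.102 to 0.836, and with the replicate block (adjusted p = 0.103). Cluster 10 was not called (adjusted p = 1.0).

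Profiles over the 5207 mitochondrial positions with 10 or more tags correlated at 0.934 to 0.939 between libraries of one strain and at 0.926 to 0.935 between strains (Pearson's r of log2 CPM plus 1, across positions, which are not independent replicates). On the scaffolds the same values were 0.890 to 0.907 and 0.854 to 0.878 over 68627 positions. Replicates of the 11 mitochondrial clusters with 1000 or more tags had a median coefficient of variation of 7.43% in the control and 13.1% in sirD. On the scaffolds it was 11.4% and 9.87% over 942 clusters. The wider spread between sirD libraries on the mitochondrial sequence goes with their shares of tags, which ran from 4.81% to 6.09%, and its part in the calls was not tested.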

How the data were processed

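CAGE libraries of 3 control and 3 sirD samples were compared. Per the labels, RNA was extracted from frozen rice koji. The submitters' processing notes name FastQC, BWA and bedtools, without versions, and no source used here gives their settings, the genome build or how reads with several matches were treated. The deposited table gives tag counts, whole numbers for each position on each strand. All 6 columns were matched to samples through their descriptions. Positions in the table count from 0 and 1 was added. A library's tags are those listed in the table, which holds only part of the genome, so they are not its full depth.

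Clusters were made from positions of 2 or more tags joined within 20 bp. Counts of clusters and of positions (10 or more tags) passing filterByExpr were scaled by TMM and tested over the whole table with edgeR 4.0.16 in R 4.3.3 (limma 3.58.1) and the strain as the single term. Usage within clusters was tested with diffSpliceDGE on Simes p. Single values per library were compared by exact permutation tests (Python 3.11.15, scipy 1.17.1). The scripts were tested on simulated data. Alternatives used DESeq2 1.42.0, other scalings, filters and joining distances, a replicate block and left-out libraries.

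The members and lists were chosen with earlier results of these data known. Named were the 10 clusters and 10 positions with most tags, the 5 minus-strand clusters with most tags, and every cluster or position called. Counts in every library are given for those positions with most tags and for some of the called ones, chosen after their values were seen; the rest are named with the range of their tags. Other members named are the next smallest p, local maxima or extremes. The disrupted gene was not located, so its level is not reported here. Same-numbered libraries deviated together with r of 0.0937, 0.0590 and 0.0418, below the 0.1 taken to show pairing, so the fit has no block. Libraries of different number had r from −0.0962 to 0.0458. A weak pairing is therefore not excluded.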

Additional observations from a re-analysis of the deposited data

How the results depend on the processing

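With the main settings 2 clusters (1 higher, 1 lower), 48 positions (17 higher, 31 lower) and 1 cluster in usage were called. For clusters, RLE scaling gave 2 higher, scaling to the mitochondrial total 2 higher and 0 lower, no filter 1 called and 0 lower, joining within 5 bp 8 called (5 higher, 3 lower, of 159 tested, beside 607 higher and 790 lower of all 6330), joining within 50 bp 0 called (0 higher, 0 lower, of 21 tested, beside 395 and 447 of all 3310), positions of 10 or more tags 5 called (3 higher, 2 lower, of 103 tested, beside 420 and 490 of all 3816), and an adjusted p below 0.01 0 called (0 higher, 0 lower); the last was chosen after seeing the data. Joined within 50 bp, clusters 8, 9 and 10 become one, whose difference was 0.31 (adjusted p = 0.179, edgeR), against the direction of cluster 9. The call lost without filter was that of cluster 9. For positions, scaling to the mitochondrial total gave 42 higher and 6 lower (beside 1416 and 814 of all 21733), DESeq2 18 lower, 5 or more tags without filter 32 higher and 19 lower of 6944 (beside 1028 and 1395 of all 131515), and an adjusted p below 0.01 10 called (4 higher, 6 lower). Usage called 0 clusters with no filter, within 5 bp or with the replicate block.

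With 1 library left out, clusters called ran from 1 to 5 (higher 0 to 3, lower 0 to 2), positions from 6 to 64 (higher 3 to 48, lower 3 to 27) and usage from 0 to 1, that 1 being another cluster. Without sirD 2, 5 of the 48 positions stayed called. Without sirD 3, 4 positions were higher. Peak share against the scaffolds ran from −4.53 to −3.90 percentage points, with an exact permutation p of 0.0625, the smallest 5 libraries allow, and minus-strand share, a comparison chosen after seeing the data, from −54.4 to −54.3.

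Same-numbered libraries did not deviate together beyond r = 0.1, so the numbers are not taken as pairs. With the replicate block 3 clusters (2 lower, cluster 6 added) and 44 positions were called, and the share of tags gave an exact permutation p of 0.5. Of 806 recomputed values for named clusters and positions, 534 kept direction and side of the threshold, 270 lost the call, 1 gained it and 1 reversed. The 806 include abundant clusters and positions that were not called with the main settings and so had no call to lose. All 270 losses fell on called members, so the share lost among these is larger than the totals show. The causes were not tested.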
